A study of Mus musculus with 12 samples.

Results

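The 34 genes described here encode cytoskeletal, signalling and surface proteins that are made across haematopoietic cells. They were taken by symbol, from a list made for this work, out of a table of 35999 gene symbols. All 34 were in the table, and all 34 passed the filter on low counts that left 17940 genes to test. The samples were 12 subcutaneous tumours of AB1-HA, a murine mesothelioma cell line, grown in male BALB/c mice aged 8 to 10 weeks. In the anti-CD4 group (n = 6) the mice were given 100 µg of a monoclonal antibody against CD4, the co-receptor of helper T cells, on days -3, 0 and 7 counted from inoculation. In the PBS group (n = 6) they were given phosphate-buffered saline, and the tumours of both groups were taken on day 9. RNA came from whole tumour, so cancer cells, stroma and immune cells were measured together, and fewer cells of a type and less RNA per cell cannot be told apart. Both groups share the implanted line and the host strain. No label ties a sequenced tumour to a cage or a day, so p-values measure the spread between these samples.

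Leukocytes crawl, adhere and form contacts with other cells by building and breaking actin filaments beneath the membrane. Small GTPases, among them the haematopoietic Rac2, drive this machinery when guanine nucleotide exchange factors of the DOCK and VAV families load them with GTP, and GTPase-activating proteins (GAPs) switch them off. WASP and the WAVE complex pass the signal to actin, integrins such as LFA-1 provide the grip, and phosphatases such as SHIP-1 and SHP-1 damp the receptors that start the process. Many of these proteins are haematopoietic relatives of proteins that other cells make from a separate gene.

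The promoter sequences of 3 genes that were lower in anti-CD4 tumours are shown because each holds the letters GAGGAA, a core motif bound by PU.1, an ETS-family transcription factor of myeloid and B cells. The windows run from 250 bases before to 50 bases after the start site, 5′ to 3′ on the gene's strand, and come from RefSeq on GRCm38.p6. They lie at chr17:57278850-57279149 on the plus strand for Vav1, at chr2:58160073-58160372 on the minus strand for Cytip and at chr7:45238790-45239089 on the minus strand for Cd37. Capitals mark GAGGAA, which was searched on both strands and so also reads TTCCTC.
Vav1: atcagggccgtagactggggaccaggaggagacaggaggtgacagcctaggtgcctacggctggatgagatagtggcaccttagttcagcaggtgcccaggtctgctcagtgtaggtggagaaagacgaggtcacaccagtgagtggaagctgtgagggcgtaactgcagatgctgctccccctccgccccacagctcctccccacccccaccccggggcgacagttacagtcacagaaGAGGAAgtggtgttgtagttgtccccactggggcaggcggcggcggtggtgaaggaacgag
Cytip: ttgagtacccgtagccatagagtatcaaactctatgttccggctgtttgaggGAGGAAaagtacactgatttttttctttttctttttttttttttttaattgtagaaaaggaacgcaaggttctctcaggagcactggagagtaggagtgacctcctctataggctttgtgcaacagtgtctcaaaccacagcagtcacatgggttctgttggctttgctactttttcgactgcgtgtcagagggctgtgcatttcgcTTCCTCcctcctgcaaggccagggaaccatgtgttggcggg
Cd37: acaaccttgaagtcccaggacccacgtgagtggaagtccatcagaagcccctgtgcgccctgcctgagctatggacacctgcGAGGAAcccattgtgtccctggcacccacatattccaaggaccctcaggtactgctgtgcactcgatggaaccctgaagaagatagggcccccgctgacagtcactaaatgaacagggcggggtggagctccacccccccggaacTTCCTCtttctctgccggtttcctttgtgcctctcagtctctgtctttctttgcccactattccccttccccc
The Vav1 match stood at -11 from the start site. The Cytip promoter held a match at -198 and another at 10 bases past the start, and the Cd37 promoter held matches at -168 and -23. Of the 34 genes, 25 matched the promoter table, with 31 promoters, and 13 of those 31 (41.9%) held GAGGAA, against 9289 of 32851 promoters in the whole table (28.3%). A second motif, TGTGGT, the core recognised by Runx factors, was searched in the same way and was found in 8 of the 31 (25.8%), against 16.8% of all promoters. The motifs can overlap only by a shared end base. A match of so few letters describes the sequence and is not a bound site. Among the other genes called lower below, Inpp5d, Laptm5 and Sash3 also held GAGGAA, while the promoters of Arhgap4, Rhoh and Arhgap30 did not. The genes with no entry were Cd52, Itgb2, Itgal, Nckap1l, Rac2, Arhgap9, Dok2, Selplg and Tbc1d10c.

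All 34 genes had a lower fitted level in anti-CD4 than in PBS tumours, with a median log2 fold change of -0.38, against -0.00033 over all genes tested. Of the 34, 10 fell (29.4%) by edgeR's quasi-likelihood test at an adjusted p under 0.05, against 2.33% of all genes tested that were lower. None was called higher by edgeR, DESeq2 or limma voom, against 2.95% of all genes by edgeR, and none had a positive fitted value in edgeR. Before adjustment, 20 of the 34 had an edgeR p under 0.05, against 28.0% of all genes tested. The differences were unequal, with log2 fold changes between -0.96 for Tbc1d10c and -0.02 for Plek, so the list did not shift as 1 block. DESeq2 called 14 of the 34 lower, against 6.45% of all genes, and limma voom with sample weights called 21, against 17.7% of all genes. Each called gene but Arhgap4 lost its call in at least 1 of the 12 edgeR fits that left out a tumour. Only Arhgap4 remained without anti-CD4 tumour 5, where 0.17% of all genes tested were called lower. Only Arhgap4 and Rhoh remained without anti-CD4 tumour 2 or 6 or PBS tumour 2, 3 or 6. In those fits 0.18%, 0.20%, 0.66%, 0.52% and 0.36% of all genes tested were called lower, in that order.

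**Figure D1:**
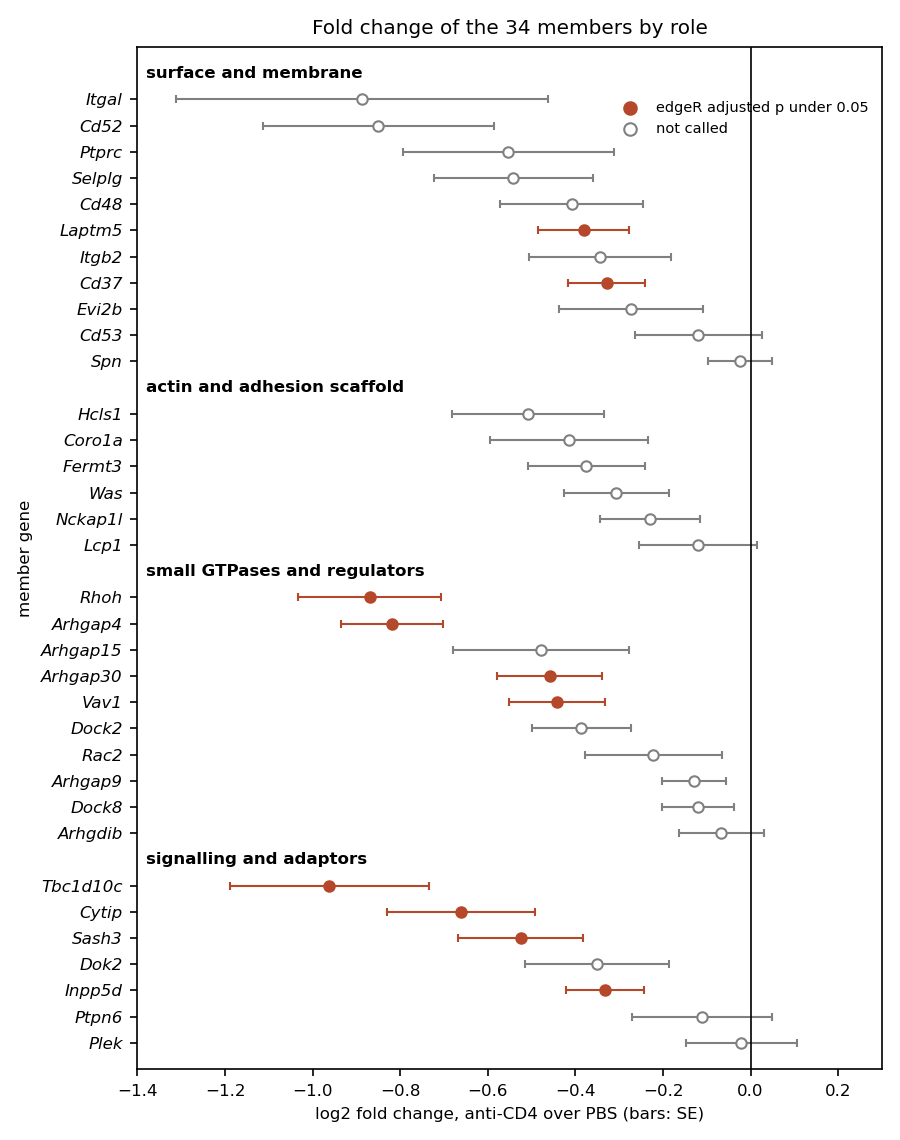
Log2 fold change of each of the 34 genes, anti-CD4 over PBS, on the horizontal axis, with genes grouped by role down the page and bars giving the SE. Filled points are the 10 genes with an edgeR adjusted p under 0.05, and every point lies left of 0, between -0.96 for Tbc1d10c and -0.02 for Plek.

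Among 10 small GTPases and their regulators 4 were called lower, against 2.33% of all genes tested, and the median log2 fold change was -0.41. Arhgap4, a haematopoietic GAP on chromosome X at 73891442 to 73921870 of GRCm38, had a lowest, median and highest level of 9.35, 11.9 and 14.4 CPM (counts per 1000000 of the TMM-scaled library) in anti-CD4 tumours, against 18.0, 21.6 and 24.99 CPM in PBS tumours. Every anti-CD4 tumour lay below every PBS tumour. Its means were 12.1 ± 2.07 CPM in anti-CD4 and 21.3 ± 2.72 CPM in PBS tumours (SD, 6 tumours each), a log2 fold change of -0.82 with an SE of 0.12 (edgeR adjusted p = 0.00529). Arhgap4 alone of the 34 stayed called whichever of the 12 tumours was left out, with an edgeR adjusted p of 0.00392 to 0.0195. Its exons overlap those of Avpr2, the vasopressin V2 receptor gene on the opposite strand, over 29.0% of their bases, and as the strand setting of the counts is not known, reads of the 2 genes may not have been told apart and the level of Arhgap4 is uncertain to that extent. Avpr2 itself was counted at a mean of 0.202 CPM in anti-CD4 and 0.565 CPM in PBS tumours.

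Rhoh encodes a GTPase-deficient small G protein needed for T cell receptor signalling in mice, and lies on chromosome 5 at 65861213 to 65896700 of GRCm38. It had 4.19, 5.68 and 7.46 CPM (lowest, median and highest) in anti-CD4 tumours, against 8.72, 10.4 and 12.1 CPM in PBS tumours. The groups again did not overlap, and the log2 fold change was -0.87 (SE 0.16, edgeR adjusted p = 0.0196). Rhoh stayed called in 11 of the 12 fits that left out a tumour, and its edgeR adjusted p was 0.0588 without anti-CD4 tumour 5. Arhgap4 and Rhoh were the 2 genes of the 34 whose groups did not overlap, both with anti-CD4 lower, against 1.19% of all genes tested.

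Vav1, the exchange factor that couples antigen receptors to Rac, had 17.5, 21.7 and 26.4 CPM in anti-CD4 tumours, against 24.9, 29.5 and 34.4 CPM in PBS tumours. All but 1 of the anti-CD4 tumours lay below the lowest PBS tumour, and the log2 fold change was -0.44 (SE 0.11, edgeR adjusted p = 0.038). Arhgap30, another GAP, had 39.3, 48.0 and 61.7 CPM in anti-CD4 tumours, against 60.7, 67.5 and 83.1 CPM in PBS tumours. Only 2 anti-CD4 tumours, 3 and 4, reached the foot of the PBS range, and the log2 fold change was -0.46 (SE 0.12, edgeR adjusted p = 0.0449).

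The other 6 genes of this group did not pass the test. Dock2, the exchange factor that activates Rac in migrating leukocytes, came nearest, with 47.3, 52.0 and 70.1 CPM in anti-CD4 tumours, against 61.8, 68.2 and 89.9 CPM in PBS tumours. Only anti-CD4 tumour 4 lay within the PBS range, and the log2 fold change was -0.39 (SE 0.11, edgeR adjusted p = 0.0603). Arhgap15, a Rac GAP, had a log2 fold change of -0.48 with an SE of 0.20 (edgeR adjusted p = 0.139). Rac2 had 34.9, 39.8 and 47.7 CPM in anti-CD4 tumours, against 32.9, 46.0 and 69.0 CPM in PBS tumours. Its anti-CD4 values lay wholly within the PBS range, with a log2 fold change of -0.22 with an SE of 0.16 (edgeR adjusted p = 0.365). Nearest to 0 were the GAP Arhgap9 at -0.13 (SE 0.07), Dock8, an exchange factor for Cdc42, at -0.12 (SE 0.08), and Arhgdib, which holds small GTPases inactive in the cytosol, at -0.07 (SE 0.10). Arhgdib had 76.0, 90.5 and 100.6 CPM in anti-CD4 tumours and 71.0, 94.9 and 109.5 CPM in PBS tumours, a full overlap.

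Among the 7 signalling genes and adaptors, 4 fell, against 2.33% of all genes tested, and the median log2 fold change was -0.35. Tbc1d10c, which encodes carabin, an inhibitor of calcineurin and Ras signalling, had 1.31, 1.61 and 2.98 CPM in anti-CD4 tumours, against 2.85, 3.30 and 5.42 CPM in PBS tumours. Anti-CD4 tumour 4 alone reached the PBS range, and its log2 fold change, -0.96 with an SE of 0.23 (edgeR adjusted p = 0.0351), was the most negative of the 34. It rested on few reads, with 54 to 212 estimated counts per tumour. A non-coding transcript not analysed here, AC109138.8, overlaps 35.5% of its exon bases on the same strand, so reads of that transcript may be counted in Tbc1d10c and its level is uncertain.

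Cytip, which binds cytohesin-1 and limits LFA-1 adhesion, had 10.0, 14.1 and 20.2 CPM in anti-CD4 tumours, against 18.3, 24.1 and 27.8 CPM in PBS tumours. Anti-CD4 tumours 3 and 4 lay within the PBS range and the other 4 below it, and the log2 fold change was -0.66 (SE 0.17, edgeR adjusted p = 0.0427). Sash3, an adaptor of lymphocyte receptor signalling, showed the same overlap of tumours 3 and 4, with 8.31, 10.2 and 13.7 CPM in anti-CD4 tumours, against 12.1, 15.6 and 18.4 CPM in PBS tumours. Its log2 fold change was -0.53 (SE 0.14, edgeR adjusted p = 0.0475). Inpp5d encodes SHIP-1, the lipid phosphatase that opposes PI 3-kinase in blood cells. It had 65.6, 71.6 and 74.1 CPM in anti-CD4 tumours, which stood close together, against 70.5, 89.9 and 105.9 CPM in PBS tumours, which were spread widely. The log2 fold change of Inpp5d was -0.33 (SE 0.09, edgeR adjusted p = 0.0464).

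The other 3 signalling genes did not pass. Dok2, a docking adaptor that restrains receptor signalling, had 15.1, 18.9 and 28.9 CPM in anti-CD4 tumours, against 24.0, 25.99 and 29.3 CPM in PBS tumours, with a log2 fold change of -0.35 with an SE of 0.16 (edgeR adjusted p = 0.185). Here the anti-CD4 tumours were the more spread, with tumours 3 and 4 inside the PBS range. Ptpn6, the tyrosine phosphatase SHP-1, had 25.1, 29.9 and 33.4 CPM in anti-CD4 tumours, against 19.3, 30.4 and 42.5 CPM in PBS tumours, with a log2 fold change of -0.11 (SE 0.16). Plek, pleckstrin, a substrate of protein kinase C in platelets and leukocytes, had 59.8, 64.3 and 91.5 CPM in anti-CD4 tumours, against 60.3, 72.1 and 91.7 CPM in PBS tumours. The groups covered nearly the same range, and the log2 fold change of Plek was -0.02 (SE 0.13).

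**Figure D2:**
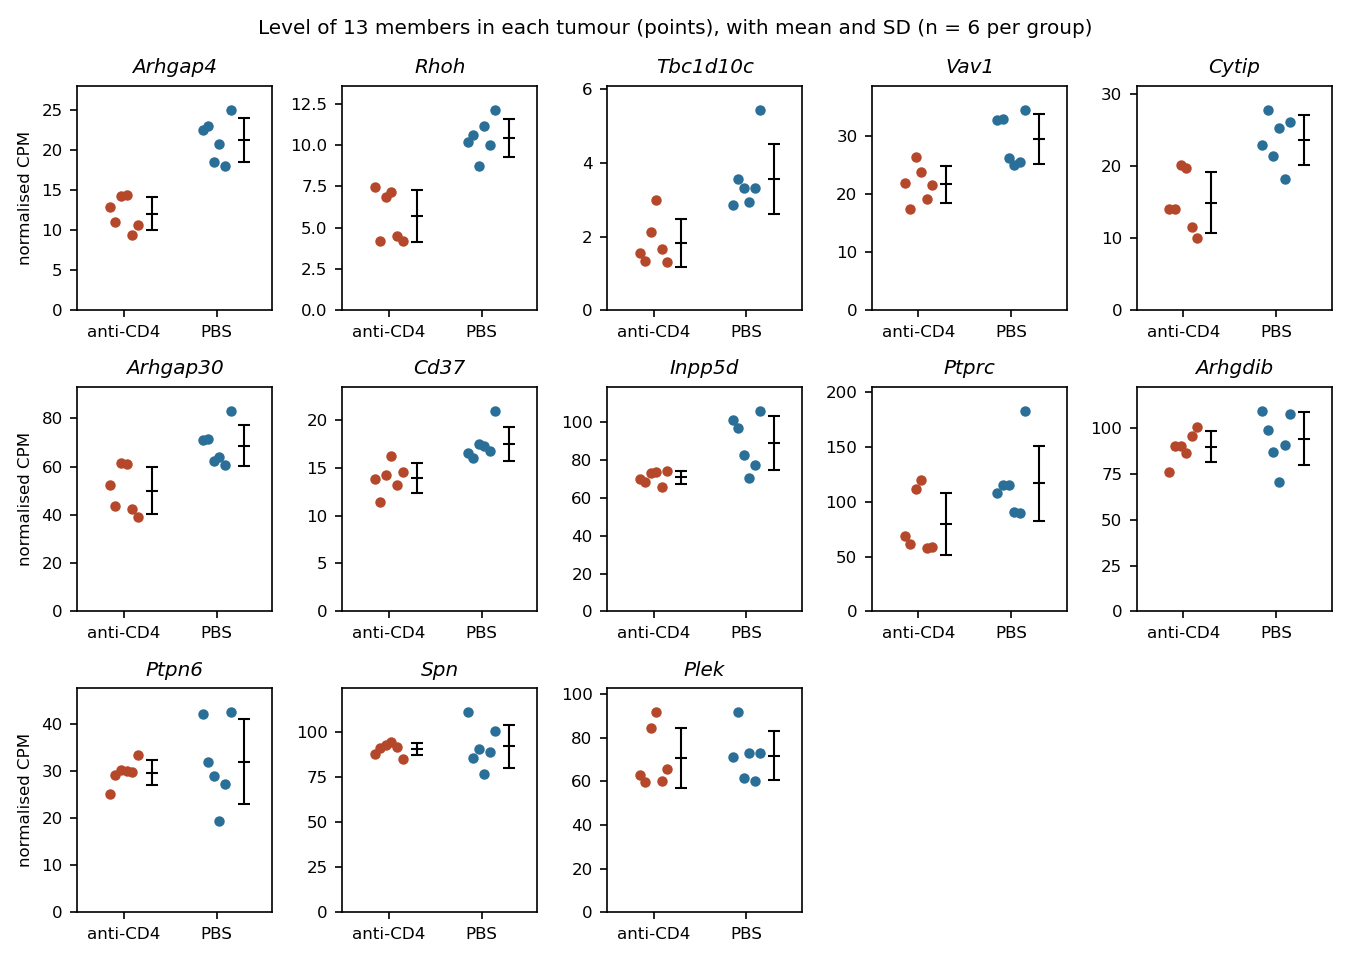
Normalised CPM of 13 genes in each tumour, with anti-CD4 left of PBS, and the mean and SD beside the points (6 tumours per group, each axis starting at 0). Arhgap4 and Rhoh show no overlap, the anti-CD4 values of Inpp5d span 65.6 to 74.1 CPM at the foot of the PBS range, Ptprc splits within the anti-CD4 group, and Arhgdib, Ptpn6, Spn and Plek overlap throughout.

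Of the 11 surface and membrane genes 2 fell, against 2.33% of all genes tested, and the median log2 fold change of the 11 was -0.38. Laptm5, a lysosomal membrane protein that promotes the breakdown of antigen receptors, had 138.9, 150.3 and 163.6 CPM in anti-CD4 tumours, against 150.7, 194.4 and 247.4 CPM in PBS tumours. As with Inpp5d, the anti-CD4 tumours stood close together while the PBS tumours reached much higher, and the log2 fold change was -0.38 (SE 0.10, edgeR adjusted p = 0.0472). Cd37, a tetraspanin of B cells and other leukocytes, had 11.4, 14.1 and 16.2 CPM in anti-CD4 tumours, against 16.03, 17.0 and 20.9 CPM in PBS tumours. Anti-CD4 tumour 4 alone reached the PBS range, and the log2 fold change was -0.33 (SE 0.09, edgeR adjusted p = 0.0464).

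Ptprc encodes CD45, the receptor phosphatase by which leukocytes are usually counted, on chromosome 1 at 138062861 to 138175708 of GRCm38. It had 57.8, 64.8 and 119.8 CPM in anti-CD4 tumours, against 89.99, 111.8 and 182.7 CPM in PBS tumours. Anti-CD4 tumours 3 and 4, at 111.9 and 119.8 CPM, lay within the PBS range, while the other 4 lay between 57.8 and 68.3 CPM, below every PBS tumour. The log2 fold change of -0.55 (SE 0.24) did not pass (edgeR adjusted p = 0.161). Itgal, the alpha chain of the integrin LFA-1, split in the same way, with 4.91, 9.70 and 27.5 CPM in anti-CD4 tumours, against 16.7, 25.2 and 39.6 CPM in PBS tumours. Its log2 fold change was -0.89 (SE 0.43, edgeR adjusted p = 0.199), and its highest tumour of the 12 held 8.06 times the level of its lowest, the widest range of the 34 genes. Itgb2, the shared beta chain of LFA-1 and Mac-1, had a log2 fold change of -0.34 with an SE of 0.16 (edgeR adjusted p = 0.188).

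The other 6 surface genes did not pass either. Cd52, a short lipid-anchored glycoprotein, had 2.79, 4.05 and 7.50 CPM in anti-CD4 tumours, against 5.002, 7.74 and 12.99 CPM in PBS tumours, a log2 fold change of -0.85 with an SE of 0.26 (edgeR adjusted p = 0.0687). Again the 2 anti-CD4 tumours inside the PBS range were numbers 3 and 4. Selplg, the P-selectin ligand PSGL-1, had a log2 fold change of -0.54 with an SE of 0.18 (edgeR adjusted p = 0.0872), and Cd48, a lipid-anchored ligand of the signalling lymphocyte receptor family, had -0.41 (SE 0.16, edgeR adjusted p = 0.125). The tetraspanin Cd53 had -0.12 (SE 0.14) and Evi2b, a transmembrane protein of blood cells, had -0.27 (SE 0.16). Evi2b shares 98.5% of its exon bases with Evi2 on the same strand, so the counts of these 2 genes may have been split between them and both are uncertain. Spn, the mucin CD43, had 84.9, 91.3 and 94.5 CPM in anti-CD4 tumours and 76.7, 89.3 and 110.8 CPM in PBS tumours, with the anti-CD4 values inside the PBS range and a log2 fold change of -0.02 (SE 0.07).

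None of the 6 actin and adhesion genes was called by edgeR, and 4 had a p under 0.05 before adjustment, against 28.0% of all genes tested. Among these 6, DESeq2 called 1, Hcls1, against 6.45% of all genes, and limma voom called 3, Fermt3, Hcls1 and Was, against 17.7%. Hcls1, the haematopoietic relative of cortactin, had 12.8, 14.3 and 17.9 CPM in anti-CD4 tumours, against 13.5, 19.6 and 31.2 CPM in PBS tumours. A single anti-CD4 tumour lay below the PBS range, and the log2 fold change was -0.51 (SE 0.17, edgeR adjusted p = 0.0887). Coro1a, an actin-binding coronin, had a log2 fold change of -0.42 (SE 0.18), Fermt3, the integrin activator kindlin-3, -0.38 (SE 0.13), and Was, which encodes WASP, -0.31 (SE 0.12), with edgeR adjusted p of 0.158, 0.0971 and 0.121 in that order. Nckap1l, the HEM1 subunit of the WAVE complex, had a log2 fold change of -0.23 (SE 0.11). Lcp1, the actin bundler L-plastin, had -0.12 (SE 0.13), with 220.7, 242.8 and 287.1 CPM in anti-CD4 tumours inside the 178.6, 266.5 and 348.4 CPM of PBS tumours.

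Per kilobase of merged exon, the levels differed widely between the 34 genes. The highest in PBS tumours were Arhgdib, Laptm5, Lcp1, Cd53 and Dock8, with a mean of 52.7, 39.7, 26.2, 24.0 and 22.8 CPM per kilobase in anti-CD4 tumours, against 55.2, 51.8, 28.5, 26.1 and 24.8 CPM per kilobase in PBS tumours. Of these 5, Laptm5 alone was called. The lowest were Arhgap15, Tbc1d10c and Rhoh, with 0.694, 0.504 and 0.554 CPM per kilobase in anti-CD4 tumours, against 0.966, 0.983 and 1.01 CPM per kilobase in PBS tumours, and the last 2 of these were called.

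The anti-CD4 tumours differed among themselves. Summed over the 34 genes, anti-CD4 tumours 1 to 6 held 1570, 1624, 1921, 1906, 1581 and 1655 CPM, against 2283, 2077, 1982, 1616, 1801 and 2551 CPM in PBS tumours 1 to 6. The groups overlapped, since PBS tumour 4 lay below 4 of the anti-CD4 tumours. The sum was 0.171 ± 0.0161% of the scaled library in anti-CD4 and 0.205 ± 0.0335% in PBS tumours (SD, 6 tumours each), so the anti-CD4 mean was 83.3% of the PBS mean. The sum is set mainly by abundant genes, and as the genes were chosen with earlier results of these data known it was not tested.

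For 27 of the 34 genes, the 2 highest anti-CD4 tumours were numbers 3 and 4. Of the 34 genes, 5 lay below the PBS range in tumour 3 and 4 in tumour 4, against 23, 22, 22 and 19 genes in tumours 1, 2, 5 and 6. The median log2 ratio to the PBS mean over the 34 genes was -0.15 in tumour 3 and -0.08 in tumour 4, against -0.42, -0.51, -0.55 and -0.42 in tumours 1, 2, 5 and 6. No gene of the 34 was above the highest PBS tumour in any anti-CD4 tumour. Among PBS tumours the same median ran between -0.33 in tumour 4 and 0.36 in tumour 6, and tumour 6 was the highest PBS tumour for 25 of the 34 genes. When anti-CD4 tumours 3 and 4 were both left out, edgeR called 17 of the 34 genes lower, against 3.86% of all genes tested, and the median log2 fold change was -0.51. As these 2 were picked as the highest of their group for most of the 34 genes, leaving them out lowers the anti-CD4 side in advance. The values of that fit are therefore only a description. In that fit, chosen with these values known, Ptprc had a log2 fold change of -0.92 (edgeR adjusted p = 0.0191) and Itgal -1.70 (edgeR adjusted p = 0.0111), while Laptm5 and Inpp5d were no longer called (edgeR adjusted p = 0.0581 and 0.0669).

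**Figure D3:**
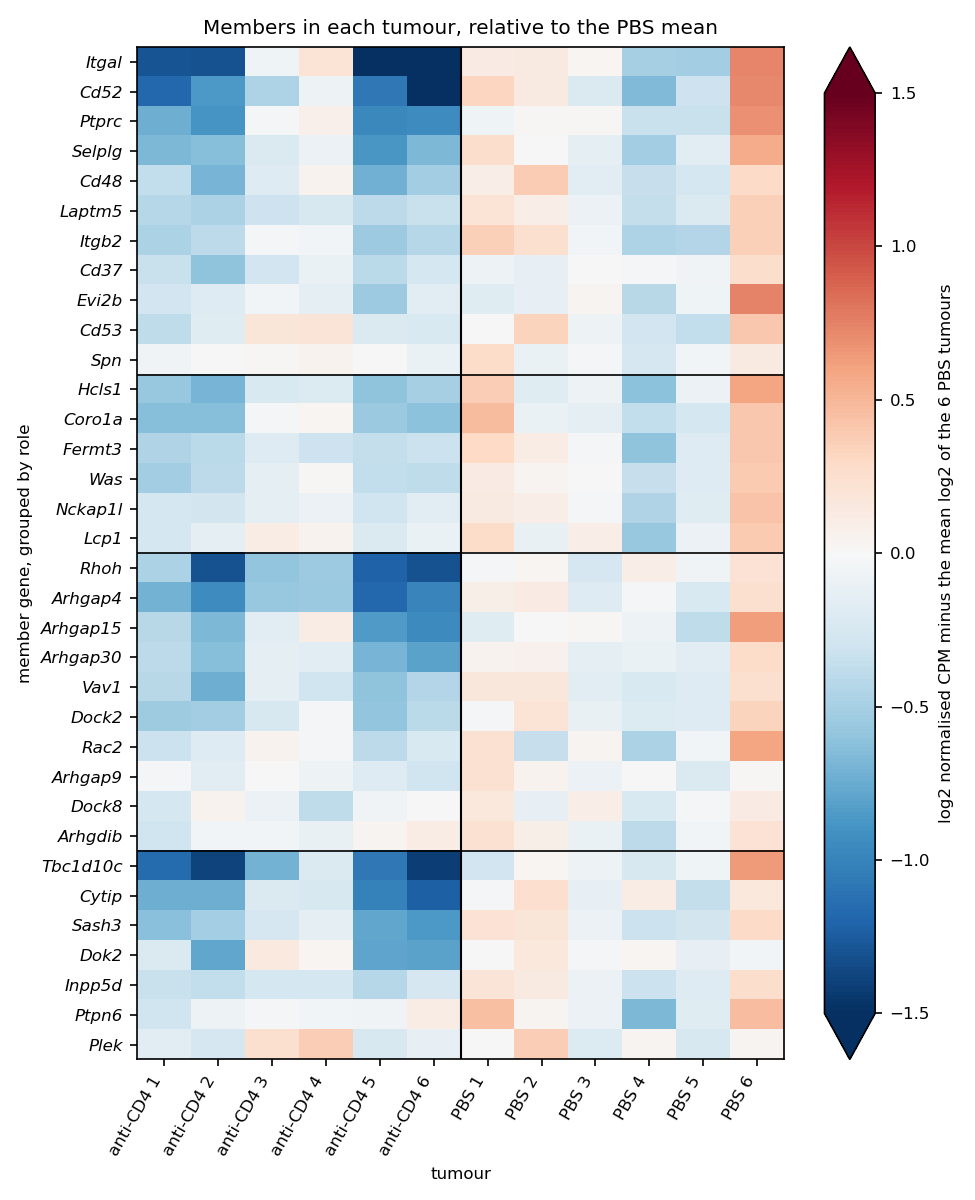
Log2 normalised CPM minus the mean log2 of the 6 PBS tumours, as colour (blue lower, red higher), for the 34 genes by role in rows and the 12 tumours in columns, anti-CD4 left of PBS. Anti-CD4 tumours 3 and 4, with medians of -0.15 and -0.08, are paler than the other 4, and PBS tumour 6, at 0.36, is the reddest column.

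The libraries held 34453540 to 62061770 estimated counts in anti-CD4 tumours and 30746898 to 41933148 in PBS tumours. The means, 46397008 ± 10036401 in anti-CD4 and 36082071 ± 4027155 in PBS tumours (SD, 6 each), differed by an exact two-sided permutation test (p = 0.039), so depth moved with the treatment. With the library total as a covariate, edgeR called none of the 34 genes, against 0.0279% of all genes tested. All 34 still had a negative log2 fold change in that fit, with a median of -0.43, and 19 had a p under 0.05 before adjustment, against 12.2% of all genes tested in that fit. The part of depth in these results was not tested beyond this fit. Cd4, the target of the antibody, had 0.618 to 2.13 CPM in anti-CD4 tumours, against 4.35 to 9.93 CPM in PBS tumours, without overlap.

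Markers of several leukocyte types moved beside the 34 genes, and the part of each in the results above was not tested. Of 8 T cell markers 2 fell, Cd5 at -2.18 and Cd2 at -1.64, against 2.33% of all genes tested. All 8 had a negative log2 fold change, with a median of -1.10. Before adjustment 7 of the 8 had an edgeR p under 0.05, against 28.0% of all genes tested. DESeq2 called 5 lower, against 6.45% of all genes, and limma voom all 8, against 17.7%. Summed without Thy1, which fibroblasts also make and which was set aside after its values were seen, the T cell markers stood at 6.70 to 30.8 CPM in anti-CD4 and 25.4 to 54.6 CPM in PBS tumours. Anti-CD4 tumours 3 and 4 held 21.7 and 30.8 CPM of that sum and the other 4 held 6.70 to 13.4 CPM, and tumour 4 alone reached the PBS range. With Thy1 the sums were 47.9 to 113.8 CPM in anti-CD4 and 101.8 to 173.4 CPM in PBS tumours, and tumours 3 and 4 no longer led: anti-CD4 tumour 1 was highest at 113.8 CPM, before tumour 4 at 109.3 CPM and tumour 3 at 87.0 CPM. No T cell marker was at 0 in every tumour.

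Of 4 natural killer cell markers tested, 1 fell, Klre1 at -1.14, against 2.33% of all genes tested. All 4 were negative, with a median log2 fold change of -1.31. Before adjustment all 4 had an edgeR p under 0.05, against 28.0% of all genes tested. DESeq2 and limma voom each called all 4 lower, against 6.45% and 17.7% of all genes. The natural killer cell sums were 2.62 to 8.01 CPM in anti-CD4 and 7.94 to 19.8 CPM in PBS tumours, while Klra8 was listed at 0 in all 12. Of 7 dendritic cell markers 4 fell, against 2.33% of all genes tested, namely Ccr7 at -1.79, Siglech at -1.41, Flt3 at -0.80 and Zbtb46 at -0.69. Their sums did not overlap, with 20.2 to 31.4 CPM in anti-CD4 and 36.1 to 57.7 CPM in PBS tumours. Of 6 CD8 and cytotoxic markers 1 fell, Ccl5 at -0.78, against 2.33% of all genes tested. The CD8 chains Cd8a and Cd8b1 were not called, at -0.15 (SE 0.34) and 0.18 (SE 0.51). The sums of the 6 markers were 6.25 to 26.1 CPM in anti-CD4 and 12.2 to 32.4 CPM in PBS tumours. None of 13 macrophage and monocyte markers was called by edgeR. DESeq2 called 2 lower, against 6.45% of all genes, and limma voom 1 lower, against 17.7%. Their median log2 fold change by edgeR was -0.29, and 10 of the 13 were negative. Before adjustment 4 of the 13 had an edgeR p under 0.05, a share near the 28.0% of all genes tested. Their sums were far larger, at 1905 to 2213 CPM in anti-CD4 and 1940 to 3368 CPM in PBS tumours, and overlapped. None of 6 B cell markers tested was called, and 1 had a p under 0.05 before adjustment, against 28.0% of all genes tested. The B cell sums were 9.49 to 11.8 CPM in anti-CD4 and 9.40 to 14.1 CPM in PBS tumours.

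**Figure D4:**
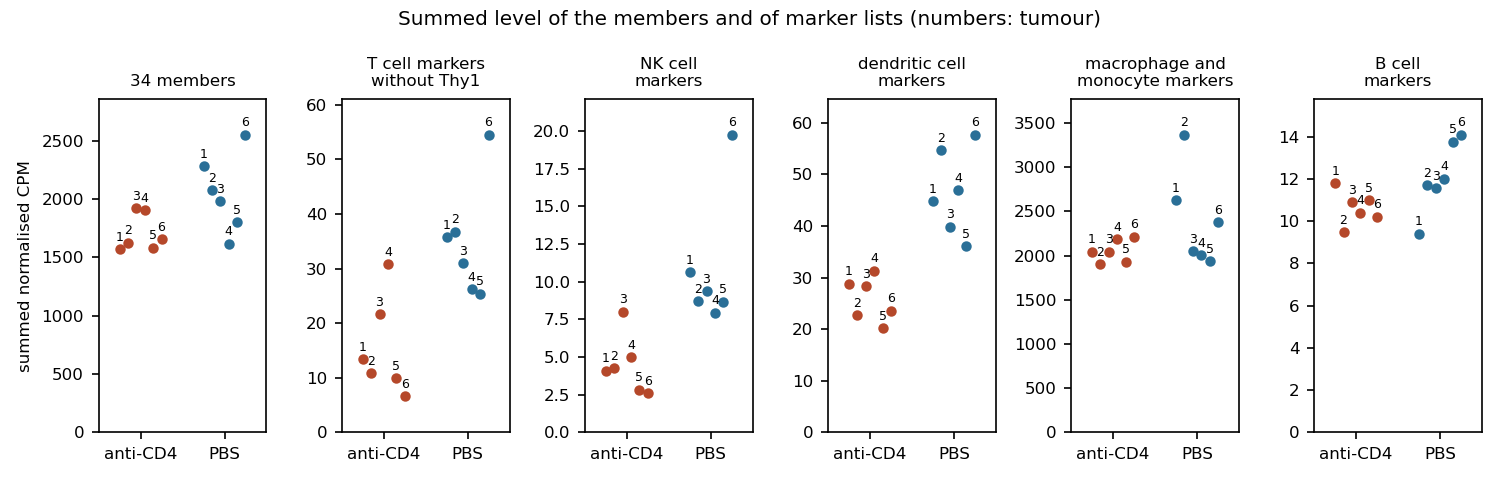
Summed normalised CPM of the 34 genes and of 5 marker lists in each tumour, anti-CD4 left of PBS, with each point numbered by tumour and each axis starting at 0. Anti-CD4 tumours 3 and 4 are the highest of their group for the 34 genes (1921 and 1906 CPM) and for T cell markers summed without Thy1 (21.7 and 30.8 CPM), the dendritic cell sums do not overlap, and the macrophage and monocyte sums do.

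Outside the leukocytes, 2 of 6 fibroblast markers rose, Lum at 0.83 and Pdgfra at 0.28, against 2.95% of all genes tested. Of 3 mesothelial markers tested, 1 rose, Pdpn, by 0.33 on the log2 scale, against the same 2.95%. The other mesothelial markers tested, Msln at -0.04 and Wt1 at -0.20, were not called. With upper quartile scaling Lum and Pdgfra were not called (edgeR adjusted p = 0.0517 and 0.0665), while Pdpn was. The fibroblast sums were 21905 to 27746 CPM in anti-CD4 and 11887 to 21788 CPM in PBS tumours, without overlap, and their part in the lower CPM of the 34 genes was not tested. These sums are set almost wholly by Col3a1 (mean 16334 CPM in anti-CD4, 12113 CPM in PBS tumours) and Col1a1 (6281 and 5122 CPM). Neither collagen gene was called (edgeR adjusted p = 0.0606 and 0.202). The lists for plasma cells, neutrophils, mast cells and basophils, eosinophils, erythroid cells, platelets, endothelium, adipocytes and skeletal muscle held no gene that edgeR called. In those 9 lists, 3 genes had an edgeR p under 0.05 before adjustment, all 3 higher in anti-CD4 tumours, against 28.0% of all genes tested. They were 1 of 3 plasma cell, 1 of 3 platelet and 1 of 5 endothelial markers tested.

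A further 44 genes of the same machinery and its regulation, most of them haematopoietic and listed with earlier results of these data known, were set beside the 34. Of these, 7 fell, against 2.33% of all genes tested, and 2 rose, against 2.95%. The median log2 fold change of the 44 was -0.24, and 36 were negative. The Ras GAP Rasal3 fell by 0.90, the transcription factor Runx3 by 0.81, and Fgd2, an exchange factor for Cdc42, by 0.74 on the log2 scale. Smaller decreases were seen in Myo1g, a haematopoietic class I myosin, at -0.65, Gmfg, a regulator of actin branching, at -0.45, Fgd3 at -0.35 and Arhgap45 at -0.33. The 2 that rose, Arpc5, an Arp2/3 subunit made in most cells, at 0.21 and Cd44, the hyaluronan receptor that stromal and tumour cells also make, at 0.22, were not called with upper quartile scaling. Spi1, which encodes PU.1, had a log2 fold change of -0.11 with an SE of 0.18 (edgeR adjusted p = 0.709), with a mean of 36.1 CPM in anti-CD4 and 39.0 CPM in PBS tumours.

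The 34 genes were also set beside relatives of wider expression, in 26 pairs with 24 such paralogues. The paralogues had a median log2 fold change of 0.11, and 6 of 24 had a negative value, or 8 with upper quartile scaling. The haematopoietic gene had the lower fold change in 25 of the 26 pairs, the exception being Plek and Plek2. The difference within pairs was not tested. Of the 24 paralogues 4 rose, against 2.95% of all genes tested. These were Fermt2 at 0.29, Pls3 at 0.29, Nckap1 at 0.26 and Wasl at 0.20 (edgeR adjusted p = 0.0217, 0.045, 0.0233 and 0.0366 in that order), and 2 of them were called with upper quartile scaling. Their haematopoietic partners Fermt3, Lcp1, Nckap1l and Was were not called. One paralogue fell, Vav2, at -0.26 (SE 0.06, edgeR adjusted p = 0.0332), beside Vav1 at -0.44.

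Per kilobase of exon, Rac2 made up 8.02% of the sum of Rac2 and Rac1 in anti-CD4 tumours, against 10.5% in PBS tumours, and Rac1, the form made in most cells, had a log2 fold change of 0.20 with an SE of 0.06 (edgeR adjusted p = 0.0545). Rhoh made up 0.941% of its pair with Rhoa in anti-CD4 tumours, against 1.94% in PBS tumours. The Rhoh to Rhoa ratio was below the lowest PBS ratio in all 6 anti-CD4 tumours, but so was the level of Rhoh alone below every PBS level. The ratios of Arhgap4 to Srgap2, Laptm5 to Laptm4a and Inpp5d to Inppl1 were also below in all 6. By contrast Fermt3, at 21.0% of its pair with Fermt2 in anti-CD4 and 29.6% in PBS tumours, had no anti-CD4 tumour below the lowest PBS ratio. Nor had Ptpn6 in its pair with Ptpn11, and the remaining pairs had between 1 and 5 such tumours. Plek supplied 93.9% of its pair with Plek2 in anti-CD4 and 93.8% in PBS tumours.

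**Figure D5:**
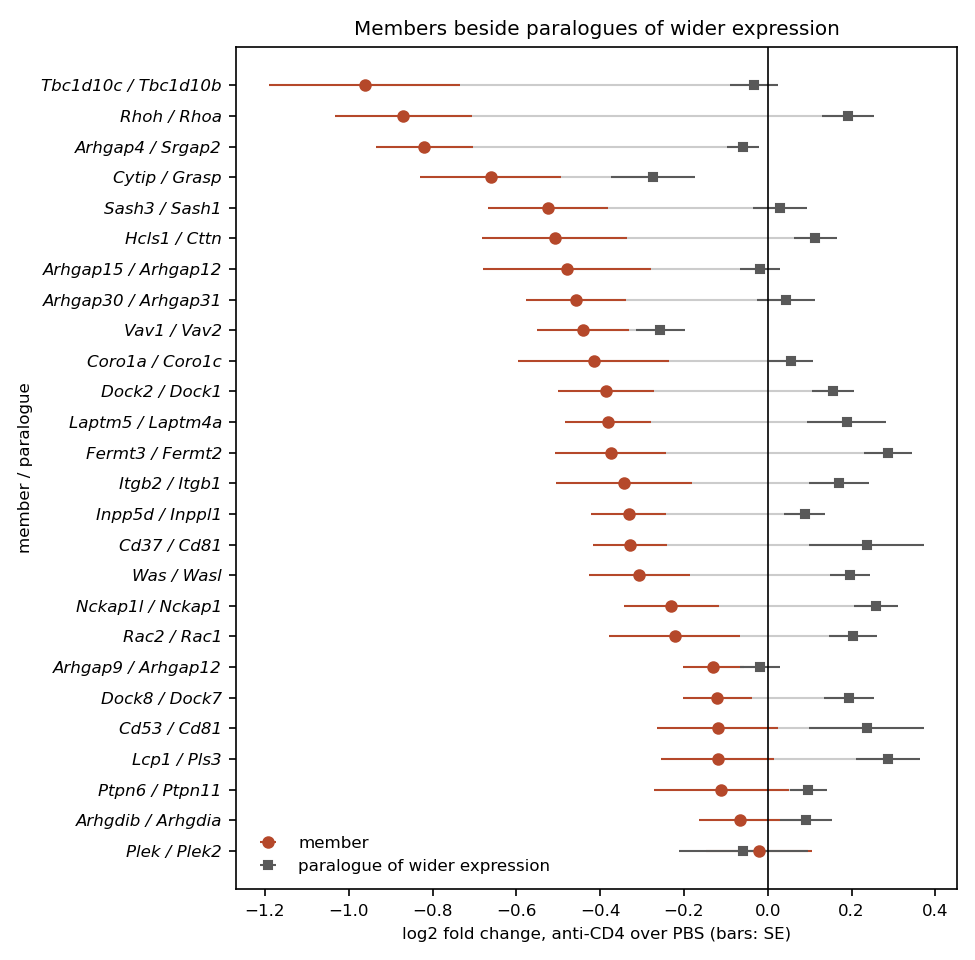
Log2 fold change, anti-CD4 over PBS, of haematopoietic genes (circles) and their paralogues of wider expression (squares) in 26 pairs, with bars giving the SE. In 25 pairs the circle lies left of the square, and the median of the squares is 0.11.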

How the data were processed

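Bulk RNA-seq of whole tumours was analysed from 1 table of the whole series. Its values are the estimated counts that the authors deposited for each gene symbol. For their making, the submitters' processing notes name the build GRCm38.p6, kallisto (version not listed) and bcl2fastq 2.20.0.422. Ribosomal and globin RNA had been removed before 100-base paired sequencing, per the labels' protocols. For strand and kallisto settings, the sources used here give nothing. In the table, 26 symbols altered to dates carried 0.227% of counts and were kept.

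Counts were rounded, filtered with filterByExpr, scaled by TMM and fitted with edgeR 4.0.16 in R 4.3.3 (robust quasi-likelihood test, Benjamini-Hochberg adjustment over 17940 genes, called under 0.05). The SE was taken as the log2 fold change over the square root of F. CPM values are TMM-normalised. DESeq2 1.42.0, limma 3.58.1 (voom with sample weights), other scalings and filters, a covariate, a replicate block and leaving out tumours were the alternatives. The procedure was tested on simulated data. Counts limit the precision of the scarcest genes. No pair of libraries agreed within sampling noise (chi-square per degree of freedom at least 8.46). What the replicate numbers mark is not stated, so the tumours were not treated as paired. Correlations of same-numbered tumours cannot exclude a shared cage or day.

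Exon lengths and overlaps came from GENCODE on GRCm38, and promoters from RefSeq. The genes, their roles, the marker lists, the paralogues and the tests were chosen with earlier results of these data known. All 34 genes are named, with their paralogues. From the other lists the genes named are those called, with Spi1, Klra8, Thy1, Cd8a, Cd8b1, Msln, Wt1, Col1a1, Col3a1, Avpr2, Naa10, L1cam and Evi2 besides. The protein sequences of Rac2 and Rac1 were not used here.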

Additional observations from a re-analysis of the deposited data

Results flagged for a closer look

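In 5 of 72 groups of 6 values, the highest or lowest tumour stood away from its group by more than Dixon's 95% critical value, which is set on the ratio of the gap to the whole range. Chance alone gives about 5% of groups. All 5 concerned the highest PBS value, and in each it was PBS tumour 6. That tumour held 182.7 CPM of Ptprc (gap over range 0.727), 20.9 CPM of Cd37 (0.698), 12.8 CPM of Arhgap15 (0.688), 23.1 CPM of Evi2b (0.699) and 5.42 CPM of Tbc1d10c (0.725). The same tumour had the highest T cell marker sum without Thy1 of the 12, at 54.6 CPM, and the highest natural killer cell sum, at 19.8 CPM. Without it, 2 of the 34 genes were called lower, Arhgap4 and Rhoh, against 0.36% of all genes tested in that fit. The median log2 fold change of the 34 was then -0.31.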

How the results depend on the processing

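Counts of calls depended on the tool and the tumours kept. By edgeR 529 genes were higher and 418 lower, against 179 and 325 with upper quartile scaling, 1337 and 1157 by DESeq2, 2809 and 3169 by limma voom, 272 and 251 with no filter, 19 and 14 with the replicate block, 0 and 5 with the library total as covariate, and 378 and 705 without anti-CD4 tumours 3 and 4. Of the 34 genes, 10 were lower, against 21 by voom, 5 with no filter, 1 with the replicate block (Arhgap4), 0 with the library total as covariate and 17 without tumours 3 and 4. That last fit left out tumours picked as the highest of their group for most of the 34, so its count is only a description. The cause of the differences between fits was not tested. Same-numbered tumours had correlations of -0.41 to 0.23, and none of 6 matched best with its own number.

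Leaving out 1 tumour gave 29 to 1160 genes higher, 31 to 1480 lower and 1 to 11 of the 34 lower. The lower count among the 34 was 1 without anti-CD4 tumour 5, 2 without anti-CD4 tumour 2 or 6 or PBS tumour 2, 3 or 6, and 4 without PBS tumour 5. Over all genes tested, the shares called lower in those fits were 0.17%, 0.18% to 0.66% and 0.85%, in that order. Of the 34, 30 had a negative value under all 22 alternatives. By voom Ptpn6 was at 0.022, Arhgdib at 0.023 and Spn at 0.010. With 1 tumour left out Plek ranged from -0.11 to 0.064, with 5 values above 0 (without anti-CD4 tumour 1, 2, 5 or 6 or PBS tumour 2), and Spn from -0.071 to 0.043, with 2 above 0 (without PBS tumour 1 or 6). None of these values near 0 was called. The scarcest of the 34, Tbc1d10c, had 54 counts in its lowest tumour.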
